A study of Mus musculus with 28 samples.

Results

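The proteasome genes were taken as all genes whose symbols start with *Psma*, *Psmb*, *Psmc*, *Psmd* or *Psme*, together with *Psmf1* and *Psmg1* to *Psmg4*. Of the 53801 genes listed in the bulk count tables, 50 met this rule after 4 pseudogenes were dropped. *Psmc3ip*, a recombination cofactor, and *Psme2b*, a copy of *Psme2*, are members by symbol only. The genes were followed in mice that lack or keep *Zmpste24* (*Z24*), the protease that matures prelamin A, in limb skeletal cells marked by the red reporter Ai9. In bulk RNA-seq and ATAC-seq, Ai9+ cells without CD31, CD45 and Ter119 were sorted at 20 weeks as CD73+ growth plate stem and progenitor cells (gpSSPCs) or Sca1+ periosteal ones (pSSPCs), with 3 control and 3 conditional knockout (CKO) libraries of each kind. All of these mice carried *Prx1-Cre*, which is active in early limb mesenchyme, and control or CKO was read from the library titles, since the genotype field reads PrxCre; Z24fl/fl for both. For scRNA-seq, cells of bone marrow and bone were stained for CD31, CD45 and Ter119 and sorted for the reporter. The study describes the 8-week cells as lacking all 3 surface markers, a gate that would remove blood and endothelial cells. There was 1 library each of PrxCre; Z24fl/+ (control) and PrxCre; Z24fl/fl (CKO) cells at 16 weeks. At 8 weeks there was 1 library with *Prx1-Cre* and 1 with *Osx-Cre*, which is active in bone-forming precursors. The labels give Z24fl/fl for both 8-week libraries, whereas the methods of the study describe *Cre* and Ai9 alone.

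The proteasome degrades proteins tagged with ubiquitin. Its 20S core is a barrel of α rings, encoded by *Psma* genes, and β rings, encoded by *Psmb* genes, of which *Psmb5*, *Psmb6* and *Psmb7* encode the cutting subunits. The 19S cap unfolds substrates with a ring of ATPases (*Psmc*) and holds ubiquitin receptors and other non-ATPase subunits (*Psmd*). Under interferon, cells replace the cutting subunits by the immunoproteasome subunits encoded by *Psmb8*, *Psmb9* and *Psmb10*, and the core can be opened by the PA28 cap encoded by *Psme1* and *Psme2*, which favours peptides for MHC class I. Cartilage, periosteum and marrow stroma all need the constitutive particle, and the immune forms are known as products of blood cells and of cells exposed to interferon.

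The promoter windows of 4 genes are shown because they belong to the interferon-induced and constitutive forms compared throughout. Each runs from 250 bases before to 50 bases after the start site in RefSeq on GRCm38.p6, the mm10 assembly, and is written 5′ to 3′ along the gene. *Psmb8* lies at chr17:34197945-34198244 on the plus strand, *Psmb9* at chr17:34187281-34187580 on the minus strand, *Psme1* at chr14:55578244-55578543 on the plus strand and *Psmb5* at chr14:54617946-54618245 on the minus strand. Capitals mark a gamma-activated sequence (GAS, TTCNNNGAA) in *Psmb8* and an interferon-stimulated response element (ISRE, GAAANN followed directly by GAAA, here on the opposite strand) in *Psme1*. *Psmb9* and *Psmb5* hold neither set of letters in these windows.
Psmb8: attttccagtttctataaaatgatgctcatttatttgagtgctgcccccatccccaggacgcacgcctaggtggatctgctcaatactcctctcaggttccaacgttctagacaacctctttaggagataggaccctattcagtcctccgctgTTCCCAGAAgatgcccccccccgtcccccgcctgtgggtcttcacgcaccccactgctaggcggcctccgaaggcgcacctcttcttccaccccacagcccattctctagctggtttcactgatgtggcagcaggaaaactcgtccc
Psmb9: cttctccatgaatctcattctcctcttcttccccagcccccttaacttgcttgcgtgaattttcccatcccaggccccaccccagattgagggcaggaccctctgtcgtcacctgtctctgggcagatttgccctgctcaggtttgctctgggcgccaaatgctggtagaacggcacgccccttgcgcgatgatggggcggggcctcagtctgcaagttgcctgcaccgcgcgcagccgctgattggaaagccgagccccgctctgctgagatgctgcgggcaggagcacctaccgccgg
Psme1: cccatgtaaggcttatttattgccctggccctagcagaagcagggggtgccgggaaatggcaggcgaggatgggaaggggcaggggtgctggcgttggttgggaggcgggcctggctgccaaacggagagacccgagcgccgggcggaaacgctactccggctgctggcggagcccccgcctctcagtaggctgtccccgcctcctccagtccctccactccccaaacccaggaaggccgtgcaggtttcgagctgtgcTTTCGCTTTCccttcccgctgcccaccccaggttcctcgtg
Psmb5: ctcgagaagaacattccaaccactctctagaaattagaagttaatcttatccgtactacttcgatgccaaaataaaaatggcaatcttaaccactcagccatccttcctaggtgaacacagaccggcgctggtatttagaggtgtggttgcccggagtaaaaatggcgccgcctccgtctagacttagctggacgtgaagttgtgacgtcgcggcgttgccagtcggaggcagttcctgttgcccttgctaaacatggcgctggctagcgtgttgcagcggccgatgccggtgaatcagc

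A promoter was listed for 42 of the 50 genes. Both strands were searched. The ISRE letters were found in 5 of 42 genes (11.9%), namely *Psmb3*, *Psmd4*, *Psmd9*, *Psme1* and *Psmg4*, compared with 3.99% of 27025 genes. The match of *Psme1* lies 9 to 18 bases after the start site. The GAS letters were found in 3 genes (7.14%), namely *Psmb8*, *Psmd2* and *Psmg1*, compared with 9.55% of all genes. The match of *Psmb8* spans bases -97 to -89. The core letters of the antioxidant response element (TGANNNNGC), which is bound by NRF1, a factor known to raise proteasome genes, were found in 24 genes (57.1%) compared with 45.0%. The CCAAT box was found in 15 genes (35.7%) compared with 41.1%. A further gene starts on the opposite strand within 1000 bases for 7 of the 42 genes (16.7%), compared with 12.3% of all genes. These include *Psmb9*, whose start lies 226 bases from that of *Tap1*, a peptide transporter of the same antigen pathway, and *Psma7*, which starts 19 bases from *Ss18l1*. Such matches describe the letters and are not evidence that a factor binds.

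Bulk RNA libraries held between 1333260 and 5315710 counts, which are deduplicated by molecular identifiers. Replicates 2 and 3 of each group were far closer to each other than to replicate 1. Over genes with 5 to 99 counts, their chi-square per degree of freedom was 0.820 to 0.980, within sampling noise. Counting all genes from 20 counts upward gave 1.59 to 1.92, compared with 53.2 to 71.5 for pairs that include replicate 1. Over the proteasome genes alone it was 3.25 to 6.70, above sampling noise, compared with 48.1 to 114 for pairs with replicate 1. They were therefore summed and counted as 1 sample, so that each group has n = 2. Replicate 1 stands apart in every group. At equal numbers of counts it would show 12082 to 12463 genes, compared with 14263 to 15298 in replicates 2 and 3. Proteasome genes took 0.665% of its counts in control and 0.642% in CKO gpSSPCs, compared with 0.482% to 0.547% in replicates 2 and 3. In pSSPCs the gap was smaller, with 0.728% compared with 0.683% and 0.684% in control and 0.776% compared with 0.763% and 0.759% in CKO cells. Markers of erythroid cells (8 genes) summed to between 18.1 and 156 CPM (counts scaled to a common library total) in the 4 replicate 1 libraries and between 1205 and 6694 CPM in the others. Since the labels do not say that replicates are separate animals, p-values measure the spread between these libraries, which may be technical. The digestion, the tissue and the sorting antibody differ between gpSSPCs and pSSPCs and cannot be told apart from the cell populations.

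The deleted gene was examined first. *Zmpste24* was at 4.7, 14.9 and 16.1 CPM in control gpSSPCs (replicates 1 to 3) and at 1.2, 8.3 and 7.5 CPM in CKO gpSSPCs. In pSSPCs it was at 0.8, 15.8 and 16.3 CPM in controls and at 0, 7.8 and 7.1 CPM in CKO cells. Every CKO library lay below the control library of the same number, while the groups overlap because of replicate 1. The fitted log2 fold change was -1.13 (SE 1.42) in gpSSPCs and -1.17 (SE 2.17) in pSSPCs, neither passing the test (edgeR quasi-likelihood, adjusted p = 1.00 in both). In scRNA-seq, the marrow stromal class held 53 *Zmpste24* UMIs (19.8 CPM) in the control and 9 (3.03 CPM) in the CKO library at 16 weeks. The corresponding class of the 8-week libraries, labelled Z24fl/fl, held 40 CPM in *Osx-Cre* and 20.4 CPM in *Prx1-Cre* cells. Whether the counted tags cover the deleted part of the transcript is not given in the sources used here.

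Across cell classes, the 5 interferon-induced genes (*Psmb8*, *Psmb9*, *Psmb10*, *Psme1* and *Psme2*) summed to 5.62 to 12.8 times more in marrow stromal cells than in chondrocyte-like cells in the 4 scRNA-seq libraries. The constitutive 20S and 19S genes differed less, with chondrocyte-like cells at 0.776 to 1.03 times the level of marrow stromal cells. Cells were clustered without any proteasome gene and named from marker lists as chondrocyte-like, periosteal mesenchymal stromal cell-like (PMSC-like), bone marrow stromal cell-like (BMSC-like), osteoblast-like (OB-like), pericyte-like, endothelial-like and erythroid-like. After the filter on cells, 782 *Osx-Cre*, 993 *Prx1-Cre*, 2068 control and 2362 CKO cells remained, and no more than 10 barcodes were shared by any pair of libraries. At 16 weeks the methods of the study give nearly these cell numbers with the genotypes the other way round, whereas *Zmpste24* was lower in the library labelled CKO, and the labels were kept. No doublet caller was run. With 1 library per group there is no replicate check and no test. Values are sums of UMIs over the cells of a class, and 95% Poisson intervals cover counting error only.

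The summed level of the 5 genes in BMSC-like cells was 1184 CPM (1090 to 1283) in *Osx-Cre*, 1037 CPM (953 to 1126) in *Prx1-Cre*, 1098 CPM (1059 to 1139) in the control library and, in the CKO library, 1037 CPM (1001 to 1075). In chondrocyte-like cells it was 92.2 CPM (59.7 to 136), 144 CPM (114 to 180), 165 CPM (118 to 224) and 185 CPM (106 to 300) in the same order. Thus BMSC-like cells exceeded chondrocyte-like cells 12.8-fold (8.61 to 20.0), 7.21-fold (5.67 to 9.27), 6.67-fold (4.88 to 9.35) and 5.62-fold (3.45 to 9.84). PMSC-like cells lay between them at 402 CPM (314 to 506), 510 CPM (403 to 638) and 515 CPM (347 to 735) in *Prx1-Cre*, control and CKO cells, with 6 cells only in the *Osx-Cre* library. OB-like cells also lay between, at 346 CPM (276 to 429), 322 CPM (258 to 397), 485 CPM (420 to 558) and 538 CPM (451 to 637). At 8 weeks the class holds a cluster led by *Mmp13* and *Spp1* in which the osteoblast markers were not raised over other cells (mean log2 fold -0.058). In the cluster led by *Bglap* alone, the level was 232 CPM (164 to 320) in *Osx-Cre* and 200.5 CPM (146 to 268) in *Prx1-Cre* cells. The intervals of PMSC-like and OB-like cells overlap at 16 weeks, and in *Prx1-Cre* cells they overlap only with the *Mmp13* cluster included. The 31 constitutive 20S and 19S genes summed to 5989, 5434, 4276 and 4619 CPM in chondrocyte-like cells and to 5841, 5836, 5508 and 5501 CPM in BMSC-like cells. The ratio was 1.03 (0.964 to 1.09), 0.931 (0.885 to 0.980), 0.776 (0.728 to 0.827) and 0.840 (0.758 to 0.927). Chondrocyte-like cells numbered 74, 161, 60 and 20, with median UMIs per cell of 3173.5 to 4438, and BMSC-like cells numbered 550, 571, 1690 and 2060, with medians of 840.5 to 1395.5.

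*Psmb8* replaces *Psmb5* in the immunoproteasome. Chondrocyte-like cells held 0 *Psmb8* UMIs in *Osx-Cre*, 8 in *Prx1-Cre*, 2 in control and 0 in CKO cells, compared with 202, 177, 928 and 967 UMIs in BMSC-like cells. By the lower 95% limit of counting error, the level in BMSC-like cells was at least 29.4-fold higher in the *Osx-Cre* and at least 7.64-fold higher in the CKO library. It was 36.5 and 9.41 times the level that a floor of 3 UMIs would give. The ratio was 21.9 (10.9 to 51.6) in *Prx1-Cre* and 42.1 (11.6 to 348) in control cells. *Psmb9*, which replaces *Psmb6*, was counted 0, 2, 1 and 0 times in chondrocyte-like cells and 76, 51, 308 and 345 times in BMSC-like cells. Its ratio was 25.3 (6.65 to 214) in *Prx1-Cre* and 28.0 (4.98 to 1108) in control cells. *Psme2* differed less, by 4.55 (2.78 to 7.88), 3.22 (2.29 to 4.60), 2.84 (1.90 to 4.47) and 2.47 times in the 4 libraries, and 18 to 45 *Psme2* UMIs were counted in chondrocyte-like cells outside the CKO library. In contrast, *Psmb5* was at 181, 217, 124 and 173 CPM in chondrocyte-like cells and at 152, 181, 164 and 188 CPM in BMSC-like cells. Each of the 5 genes was lower in chondrocyte-like than in BMSC-like cells of every library, as the plot of summed levels by class shows. Pericyte-like cells (16 to 32 cells) were at 769, 505, 439 and 163 CPM for the 5 genes together, the last of these below chondrocyte-like cells of the same library, with intervals that overlap.

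**Figure D1:**
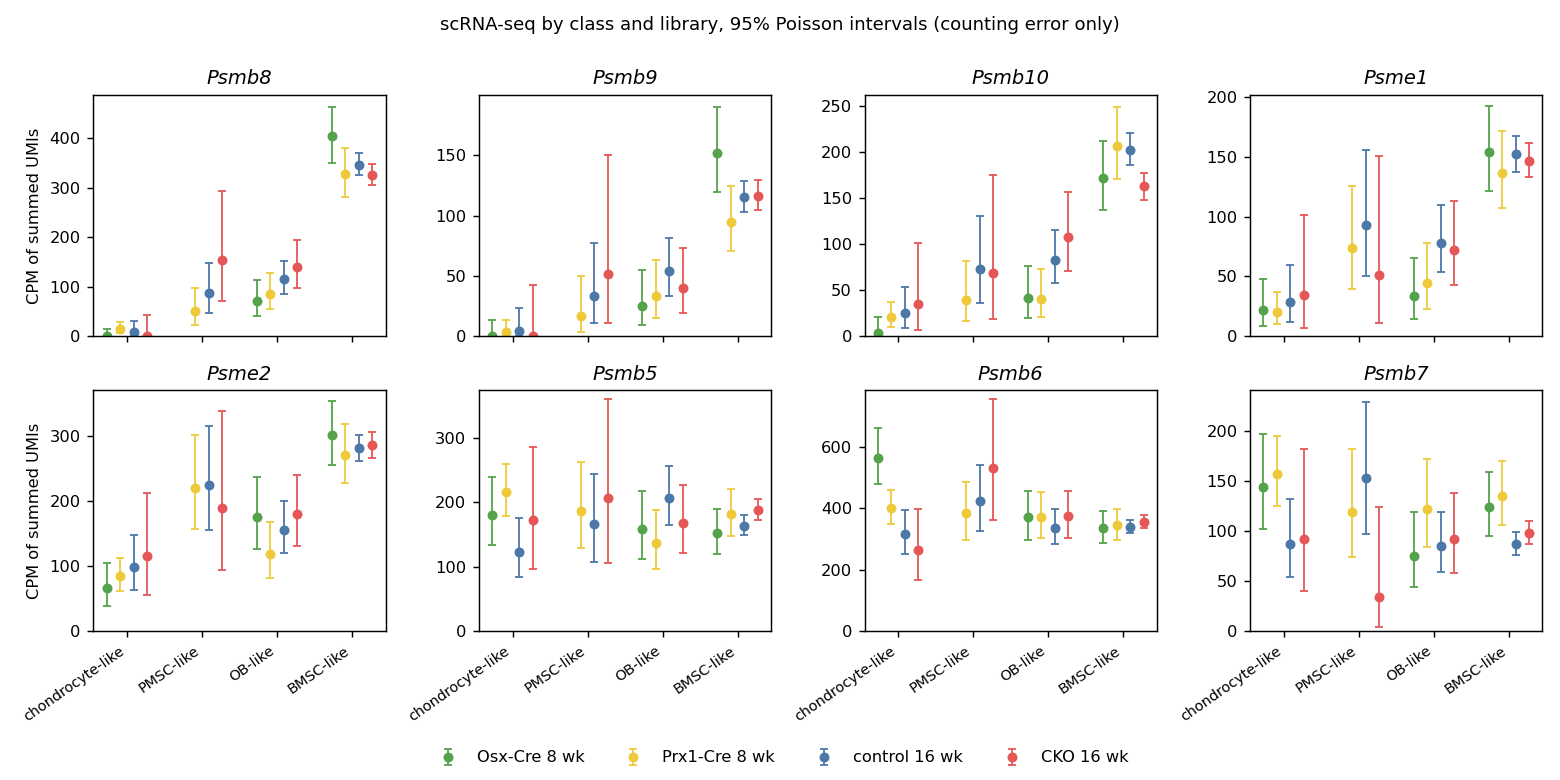
CPM of summed UMIs (vertical axes, linear) by cell class (horizontal axes) for *Psmb8*, *Psmb9*, *Psmb10*, *Psme1*, *Psme2* and the constitutive genes *Psmb5*, *Psmb6* and *Psmb7*, where points are libraries and bars are 95% Poisson intervals of counting error. *Psmb8* is below 20 CPM in chondrocyte-like cells and above 320 CPM in BMSC-like cells of every library, whereas *Psmb5* lies between 120 and 220 CPM in both classes. OB-like cells at 8 weeks include the cluster led by *Mmp13*, and the 6 PMSC-like *Osx-Cre* cells are not drawn.

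Expressed as a share of the UMIs of the 3 pairs of exchangeable cutting subunits (*Psmb8*, *Psmb9* and *Psmb10* of these plus *Psmb5*, *Psmb6* and *Psmb7*), the interferon-induced forms made up 54.3% (exact 95% interval 50.5 to 58.1), 48.7% (44.9 to 52.5), 52.9% (51.2 to 54.6) and 48.5% (46.9 to 50.1) in BMSC-like cells. In chondrocyte-like cells the share was 0.413% (0.0105 to 2.28), 4.82% (3.01 to 7.27), 6.57% (3.05 to 12.1) and 6.12% (1.28 to 16.9). OB-like cells, with the *Mmp13* cluster at 8 weeks, were intermediate at 18.5%, 20.1%, 28.5% and 31.2%, and PMSC-like cells stood at 13.5%, 20.6% and 26.2% in *Prx1-Cre*, control and CKO cells. Since each transcript is counted once whatever its length, the share is a ratio of captured transcripts and not of assembled particles.

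Considering all members with at least 20 UMIs in both classes together, 15 of 47 were lower in chondrocyte-like than in BMSC-like cells by at least 1.5 times in the control library (31.9%, compared with 51.1% of all genes measured). In CKO cells they were 15 of 46 (32.6% compared with 50.8%), in *Prx1-Cre* cells 9 of 45 (20.0% compared with 38.1%) and in *Osx-Cre* cells 12 of 42 (28.6% compared with 42.6%). These counts are below the background in each library. The 5 interferon-induced genes were among them in all 4 libraries. The control library also had *Psma7*, *Psma6*, *Psmd1*, *Psmd3*, *Psmd4*, *Psmd7*, *Psmd9*, the activators *Psme3* and *Psme4* and the assembly chaperone gene *Psmg3* on the lower side. Members on the higher side included *Psma8*, the germ cell α subunit, in control cells (16.5 compared with 5.98 CPM, from 4 and 16 UMIs). They also included *Psmg4* in CKO cells (139 compared with 45.8 CPM). In *Osx-Cre* cells *Psmb6* was at 564 compared with 336 CPM, a ratio of 1.68 (1.34 to 2.10). Of all genes, 15.0% in control, 18.2% in CKO, 24.2% in *Prx1-Cre* and 21.7% in *Osx-Cre* cells were higher by at least 1.5 times. OB-like cells were lower than BMSC-like cells by at least 1.5 times for 11 of 46 members in the control library (23.9%, compared with 40.6% of all genes). All 5 interferon-induced genes were again among them. OB-like cells were higher for 0 members, compared with 10.5% of all genes. *Psmb11*, the thymus subunit, had 0 UMIs in both classes of every library.

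Genes of the interferon response (31 genes, none of them a proteasome gene) were also more abundant in BMSC-like than in chondrocyte-like cells. They summed to 2334, 2120, 1999 and 1270 CPM in BMSC-like cells of the *Osx-Cre*, *Prx1-Cre*, control and CKO libraries and to 88.5, 134, 152 and 162 CPM in chondrocyte-like cells. In PMSC-like cells the interferon list did not follow the 5 proteasome genes, at 238, 331 and 1202 CPM in *Prx1-Cre*, control and CKO cells, compared with 402, 510 and 515 CPM for the 5 genes. OB-like cells were at 467, 218, 432 and 502 CPM for the interferon list, of which the first 2 were 251 and 107 CPM in the *Bglap* cluster alone. A small cluster of BMSC-like cells at 8 weeks, led by *Cxcl10*, *Cxcl9* and *Ifit3b*, held 22 *Osx-Cre* and 14 *Prx1-Cre* cells. There the 5 proteasome genes summed to 2575 and 2253 CPM and the interferon list to 12164 and 14976 CPM, compared with 1118 and 1002 CPM and with 1870 and 1750 CPM in the main BMSC-like cluster. In the *Mmp13* cluster (66 *Osx-Cre* and 34 *Prx1-Cre* cells) the 5 genes summed to 572 and 918 CPM and the interferon list to 895 and 765 CPM. Markers of myeloid cells (13 genes) summed to 384, 1029, 382 and 208 CPM in BMSC-like cells and to 44.3, 50.4, 12.4 and 23.1 CPM in chondrocyte-like cells. Of the 13 genes, 10 to 13 had UMIs in BMSC-like cells, the most abundant was *Fcer1g* (*S100a8* in *Prx1-Cre* cells), and the leukocyte gene *Ptprc* (CD45) had 1, 1, 0 and 2 UMIs. Markers of erythroid cells (8 genes) went the same way, at 532, 631, 703 and 360 CPM in BMSC-like and 3.69, 44.8, 128 and 23.1 CPM in chondrocyte-like cells. Of these, 7 or 8 had UMIs in BMSC-like cells, and *Hbb-bs* was the most abundant (*Hba-a1* in CKO cells). Antibodies to CD45 and Ter119 were part of the sort. The part of both lists in the proteasome values was not tested.

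Control and CKO cells at 16 weeks were compared within these classes. In BMSC-like cells, 0 of 48 members differed by at least 1.5 times in either direction, while 4.46% of all genes were higher and 7.62% lower in CKO cells. The CKO to control ratio was 0.945 (0.898 to 0.994) for the 5 interferon-induced genes, 0.999 (0.977 to 1.02) for the constitutive genes, 0.939 (0.858 to 1.03) for *Psmb8* and 1.15 (1.01 to 1.31) for *Psmb5*. *Psmb10*, which replaces *Psmb7*, was at 203 CPM in control and 163 CPM in CKO cells, a ratio of 0.802 (0.708 to 0.908). Its intervals and those of *Psmd7* lay apart in the 2 libraries, and those of the other members overlapped. The class was made of a cluster led by *Ccl2* and *Iigp1* (1090 control and 1058 CKO cells) and one whose leading genes include *Fzd5* and *Ebf3* (600 and 1002 cells), so that the share of the second was larger in CKO cells. In the first, the 5 genes summed to 1156 CPM in control and 1083 CPM in CKO cells beside an interferon list of 2136 and 1316 CPM. In the second, they summed to 860 and 923 CPM beside 1436 and 1153 CPM. In OB-like cells, *Psmd1*, *Psmd5*, *Psmc4*, *Psmg4* and *Psmd2* were lower by at least 1.5 times in CKO cells (5 of 43, compared with 11.6% of all genes) and 0 were higher (compared with 15.5%). In chondrocyte-like cells 4 of 31 were higher (compared with 16.5%) and 2 lower (compared with 15.3%), and in PMSC-like cells 5 of 28 were higher (compared with 13.3%) and 7 lower (compared with 20.8%). The intervals of the 2 levels overlapped for each gene past 1.5 times in these 3 classes. Intervals of the ratio itself were taken for the 5 interferon-induced genes and for *Psmb5*, *Psmb6* and *Psmb7*. Among these genes and 3 classes, only that of *Psmb7* in PMSC-like cells left out 1. It had 23 UMIs (152 CPM) in control and 2 UMIs (34.3 CPM) in CKO cells, a ratio of 0.225 (0.0257 to 0.911). Erythroid-like cells (51 control and 46 CKO) had 12 of 30 members higher in CKO cells (compared with 35.4% of all genes). The 5 genes summed to 500 CPM in control and 923 CPM in CKO cells of this class, a ratio of 1.85 (1.30 to 2.64). Constitutive 20S and 19S genes were higher too, at 5425 CPM and 7218 CPM, a ratio of 1.33 (1.19 to 1.49). In the same class erythroid markers (8 of 8 genes with UMIs in both) summed to 217245 CPM in control and 21911 CPM in CKO cells, with *Hbb-bs* and *Hba-a1* the most abundant. Myeloid markers summed to 274 CPM (7 of 13 genes with UMIs) and 3199 CPM (8 of 13), with *S100a8* the most abundant and *Ptprc*, *Cd74* and *Csf1r* at 0 in both. The part of these markers in both ratios was not tested.

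In sorted cells, the interferon-induced genes were lower in gpSSPCs than in pSSPCs of both genotypes in the fitted values, although no gene passed the adjusted threshold. In bulk samples, fewer cells of a type and less RNA per cell cannot be told apart. The labels of the sorts were first checked against markers. All 10 chondrocyte genes were higher in control gpSSPCs than in control pSSPCs, with a median log2 fold change of 2.10, and the 10 PMSC genes had a median of -1.85, although chondrocyte genes still summed to 4620 to 9411 CPM in control pSSPCs. Erythroid genes had a median of 1.89 in the same comparison, and all 7 OB genes were higher in gpSSPCs, with a median of 1.91. All 6 tested endothelial genes were lower (median -1.30), as were 5 of 6 pericyte genes (median -0.98). The 7 endothelial genes summed to 44.0, 45.7 and 44.1 CPM in control gpSSPCs and to 123, 132 and 127 CPM in control pSSPCs, with *Plvap* the most abundant and 2 and 3 genes at 0 in replicate 1. The 7 pericyte genes summed to 17.7, 81.7 and 76.8 CPM and to 71.3, 130.2 and 142 CPM, with *Rgs5* the most abundant and 3 genes at 0 in replicate 1 of both. In scRNA-seq, endothelial-like cells (5 *Osx-Cre* and 12 *Prx1-Cre* cells) held the 5 interferon-induced genes at 975.4 CPM (317 to 2276) and 951 CPM (532 to 1569). The part of these cells in the proteasome values was not tested.

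*Psmb8* was at 8.2, 64.9 and 65.9 CPM in control gpSSPCs and at 15.2, 67.9 and 75.9 CPM in CKO gpSSPCs (replicates 1 to 3), compared with 8.5, 147 and 154 CPM in control pSSPCs and 48.9, 235 and 261 CPM in CKO pSSPCs. Replicate 1 was the lowest library of each group, and the populations overlap through it. *Psmb9* was at 6.9, 26.4 and 24.2 CPM in control and 23.4, 37.9 and 38.4 CPM in CKO gpSSPCs, and at 44.2, 31.4 and 30.0 CPM in control and 51.5, 88.1 and 95.5 CPM in CKO pSSPCs. In both genotypes its 3 gpSSPC libraries lay below its 3 pSSPC libraries. *Psmb10* stood at 48.8, 76.4 and 86.5 CPM in control gpSSPCs and at 123, 190 and 185 CPM in control pSSPCs, again without overlap, and at 62.6, 98.7 and 86.0 CPM and 94.1, 217 and 219 CPM in CKO cells.

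The PA28 genes differed in how far the populations overlapped. *Psme1* was at 19.9, 97.5 and 104 CPM in control and 21.6, 121 and 138 CPM in CKO gpSSPCs, and at 19.5, 254 and 270 CPM in control and 90.4, 244 and 268 CPM in CKO pSSPCs. Its replicate 1 was the lowest library of each group, and through it the populations overlap in both genotypes. *Psme2* was at 178, 139 and 149 CPM in control and 179, 199 and 220 CPM in CKO gpSSPCs, and at 351, 262 and 298 CPM in control and 312, 326 and 354 CPM in CKO pSSPCs. The gpSSPC and pSSPC libraries of *Psme2* did not overlap in either genotype. Its replicate 1 was not set apart from the others as in *Psmb8* and *Psme1*, as shown in the plot of library values.

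**Figure D2:**
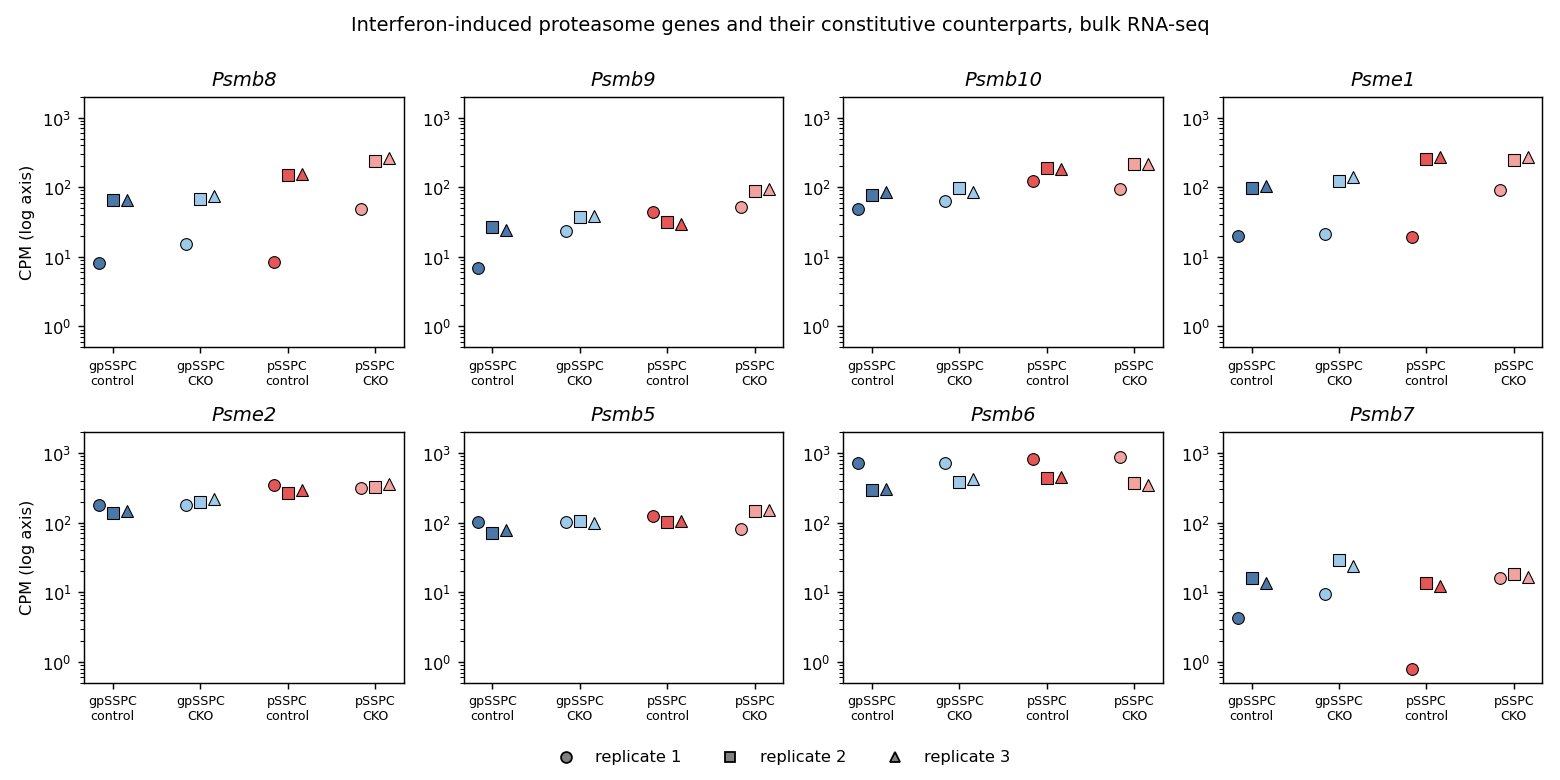
CPM (vertical axes, log scale) in each bulk RNA-seq library for the 5 interferon-induced genes and the constitutive genes *Psmb5*, *Psmb6* and *Psmb7*, by population and genotype (horizontal axes), with 1 point per library and a shape per replicate number. *Psme2* separates gpSSPCs (139 to 220 CPM) from pSSPCs (262 to 354 CPM), whereas *Psmb8* and *Psme1* are low in replicate 1 of each group and *Psmb6* is high there.

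In control cells the log2 fold change of gpSSPCs over pSSPCs was -1.15 (SE 1.35) for *Psmb8*, -1.19 (SE 0.76) for *Psmb9*, -1.25 (SE 0.59) for *Psmb10*, -1.25 (SE 1.23) for *Psme1* and -0.98 (SE 0.40) for *Psme2*. In CKO cells the same values were -1.77 (SE 1.37), -1.23 (SE 0.75), -1.03 (SE 0.59), -1.19 (SE 1.22) and -0.75 (SE 0.40). The median of the 5 genes was -1.19 in both genotypes, with 5 of 5 below 0, beside a median of -0.03 over all 13173 genes tested. With each library left out in turn the control median ranged from -1.57 to -0.47. Nevertheless, 0 of 49 members and 0.0% of genes passed an adjusted p under 0.05 in either genotype (edgeR quasi-likelihood, Benjamini-Hochberg), as did 0 members in DESeq2, compared with 1.91% of genes in control and 0.812% in CKO cells. At an unadjusted p under 0.05 with an absolute log2 fold change over 0.25, 2 of 49 members stood out in control cells, compared with 6.19% of all genes, and 0 of 49 in CKO cells, compared with 4.31%. The 2 were *Psme2* (adjusted p = 0.735 in edgeR) and *Psmc5*, a 19S ATPase (-1.07, SE 0.46, adjusted p = 0.781 in edgeR). With the replicate number as a block, *Psmc5* passed in control cells (-1.06, adjusted p = 0.0398 in edgeR, among 476 genes, 3.61% of those tested).

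*Psmc5* was at 204, 285 and 161 CPM in control and 342, 393 and 248 CPM in CKO gpSSPCs, and at 464, 519 and 329 CPM in control and 725, 422 and 239 CPM in CKO pSSPCs. It is 1 of 11 genes of 5792 (0.19%) whose replicate 2 exceeded replicate 3 by at least 1.4 times in every group (genes with at least 100 counts), by 1.58 to 1.77 times, and is the only proteasome gene among the 11. Control gpSSPCs lay below control pSSPCs, and CKO libraries overlapped.

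The constitutive core differed less between populations in its median, although *Psma4* was at -1.27 in control cells. *Psmb5* was lower in control gpSSPCs than in control pSSPCs without overlap, but its nearest libraries were almost equal, at 101 and 101.3 CPM. The cutting subunit gene *Psmb5* was at 101, 71.4 and 78.6 CPM in control and 101, 105 and 99.8 CPM in CKO gpSSPCs, and at 122, 101 and 105 CPM in control and 81.6, 147 and 153 CPM in CKO pSSPCs. *Psmb6* was at 728, 298 and 306 CPM in control and 720, 385 and 418 CPM in CKO gpSSPCs, and at 813, 431 and 445 CPM in control and 862, 372 and 352 CPM in CKO pSSPCs, with replicate 1 highest in every group. *Psmb7* was low throughout, at 4.3, 15.8 and 13.5 CPM and 9.4, 28.8 and 23.9 CPM in control and CKO gpSSPCs and at 0.8, 13.7 and 12.4 CPM and 16.1, 18.3 and 16.8 CPM in control and CKO pSSPCs. The 14 constitutive 20S genes had a median log2 fold change of gpSSPCs over pSSPCs of -0.03 in control cells (7 below 0) and -0.11 in CKO cells (11 below 0). *Psma7*, an α subunit gene, was at 1731, 265 and 291 CPM in control gpSSPCs and at 1592, 340 and 384 CPM in control pSSPCs, which shows how far replicate 1 can depart from the others. The 17 genes of the 19S cap had medians of -0.48 (13 below 0) and -0.15 (12 below 0). In control cells *Psmd1*, a scaffold subunit gene, had the largest negative value of the cap (-1.33, SE 0.66), *Psma4* that of the core (-1.27), and *Psmd6* (0.48), *Psmd14*, the deubiquitinase (0.44), and *Psmc1* (0.34) were on the positive side. *Psmd1* was at 24.6, 44.7 and 52 CPM in control gpSSPCs and at 144, 43.2 and 47.2 CPM in control pSSPCs, and in replicates 2 and 3 alone its value was 0.079 and that of *Psmc1* -0.25, so that both signs depend on replicate 1. *Psmd6* was at 83.7, 67.7 and 79.4 CPM and at 44.2, 65.5 and 68.1 CPM in the same groups, furthest apart in replicate 1. *Psmd14* was at 45.3, 47.5 and 52.4 CPM and at 52.6, 19.3 and 19.6 CPM, higher in gpSSPCs only in replicates 2 and 3.

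Of the other members, the core assembly chaperone genes *Psmg4* (-1.29, SE 0.61) and *Psmg1* (1.26, SE 0.71) had the most extreme values of their group in control cells. *Psmg4* was at 49.2, 76.4 and 77.6 CPM in control gpSSPCs and at 232.6, 76.4 and 83.2 CPM in control pSSPCs, and in replicates 2 and 3 alone its value was -0.087 and that of *Psmg1* 0.32, so that the size of both rests on replicate 1. *Psma8*, which passed the filter on low counts through gpSSPCs and not within pSSPCs, was at 8.8, 11.5 and 9.6 CPM in CKO gpSSPCs and at 1.0, 1.4 and 1.0 CPM (2, 5 and 6 counts) in CKO pSSPCs. Without regard to the fit, 12 of 49 members (24.5%) had all 3 control gpSSPC libraries below all 3 control pSSPC libraries, compared with 12.2% of all genes. They were *Psma4*, *Psmb5*, *Psmb9*, *Psmb10*, *Psmc3*, *Psmc5*, *Psmc6*, *Psmd4*, *Psmd5*, *Psme2*, *Psme2b* and *Psmg2*, and *Psmg1* alone lay above (2.04%, compared with 13.8%). In CKO cells 6 of 49 (12.2%) lay below, equal to the 12.2% of all genes, namely *Psmb9*, *Psmc2*, *Psmc3ip*, *Psmd6*, *Psmd13* and *Psme2*, and *Psma8* alone lay above (2.04%, compared with 11.0%).

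Interferon genes and antigen processing genes stood beside these values. The 31 interferon genes had a median log2 fold change of gpSSPCs over pSSPCs of -1.06 in control cells (26 below 0) and -1.16 in CKO cells (28 below 0). They summed to 302, 1099 and 1096 CPM in control gpSSPCs and to 826, 2179 and 2243 CPM in control pSSPCs, and were lowest in replicate 1 in each group. The 16 genes of MHC class I antigen processing had medians of -0.44 and -0.90. Of the proteasome regulators, *Nfe2l1*, which encodes NRF1, was at 174, 158 and 163 CPM in control gpSSPCs and at 915, 157 and 164 CPM in control pSSPCs, so that its difference rests on replicate 1. The 14 tested genes of proteasome partners outside the symbol rule, such as the chaperone gene *Pomp* and the cap subunit genes *Adrm1* and *Sem1*, had medians of 0.23 and -0.06.

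The share of interferon-induced forms among the 3 exchangeable pairs was 7.12%, 30.3% and 30.7% in control gpSSPCs and 10.9%, 28.3% and 27.0% in CKO gpSSPCs. It was 15.8%, 40.3% and 39.6% in control pSSPCs and 16.8%, 50.2% and 52.4% in CKO pSSPCs. For each replicate number pSSPCs were higher than gpSSPCs of the same genotype. In pSSPCs *Psmb9* made up 5.15%, 6.78% and 6.31% of *Psmb9* plus *Psmb6* counts in controls and 5.63%, 19.2% and 21.3% in CKO cells. *Psmb8* made up 6.49%, 59.25% and 59.4% of *Psmb8* plus *Psmb5* counts and 37.5%, 61.6% and 63.1% in the same order. The share of *Psmb10* in *Psmb10* plus *Psmb7* was 99.3%, 93.3% and 93.7% in controls and 85.4%, 92.2% and 92.9% in CKO cells. It was lower in CKO cells mainly in replicate 1, where *Psmb7* had 1 count in control and 31 in CKO cells. *Psmb7* was low in all bulk libraries, whereas control PMSC-like cells in scRNA-seq held 11 *Psmb10* and 23 *Psmb7* UMIs.

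The loss of *Z24* was compared within each population. More proteasome genes had fitted values above 0 than below in gpSSPCs, similar numbers did in pSSPCs, and no gene passed the adjusted threshold in either. In gpSSPCs 35 of 49 members had a fitted log2 fold change above 0, with a median of 0.20 beside 0.002 over 12041 genes. The median was 0.0054 in the replicate 1 pair and 0.23 in replicates 2 and 3. In pSSPCs 25 of 48 were above 0, with a median of 0.02 beside -0.02 over 11878 genes. The pSSPC median was -0.18 in the replicate 1 pair and 0.17 in replicates 2 and 3, which are opposite in sign. At an adjusted p under 0.05, 0 members and 0.0% of genes were called in both populations (edgeR quasi-likelihood), 0 members in DESeq2 (compared with 0.0083% of genes in gpSSPCs and 0.0% in pSSPCs), and 0 members at an unadjusted p under 0.05 with an absolute log2 fold change over 0.25, compared with 0.473% of genes in gpSSPCs and 1.2% in pSSPCs.

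For the immunoproteasome, *Psmb9* had log2 fold changes of 0.93 (SE 0.82) in gpSSPCs and 0.98 (SE 0.76) in pSSPCs, and *Psmb8* of 0.26 (SE 1.04) and 0.90 (SE 1.15). *Psmb10* was at 0.23 (SE 0.52) and 0.03, *Psme1* at 0.34 (SE 0.97) and 0.30, and *Psme2* at 0.28 (SE 0.44) and 0.07. All 5 fitted values were above 0 in both populations, with medians of 0.28 and 0.30 (0.94 in pSSPCs with the replicate block), compared with 0.11 and 0.03 for the 14 constitutive 20S genes. With each library left out in turn the medians ranged from -0.10 to 0.98 in gpSSPCs and from -0.01 to 0.87 in pSSPCs, and replicates 2 and 3 alone gave 0.37 and 0.26. The signs of *Psmb8*, *Psmb10* and *Psme1* were not stable in either population. Without control replicate 1 they were -0.55, -0.10 and -0.39 in gpSSPCs and -0.013, -0.27 and -0.60 in pSSPCs. In pSSPCs *Psmb10* was also at -0.061 in the fit blocked by replicate number, and *Psme1* at -0.038 in replicates 2 and 3 alone. In pSSPCs the *Psmb9* libraries of the CKO group all lay above those of the control group, and those of *Psmb8* overlapped because replicate 1 of the CKO group was at 48.9 CPM.

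Among the other members in gpSSPCs, the largest fitted values were those of *Psma8* (1.62, SE 1.47), the cap subunit gene *Psmd12* (1.31, SE 0.70), the cap assembly chaperone gene *Psmd5* (0.96, SE 0.56), *Psmb7* (0.91, SE 1.02), *Psmd13* (-0.99, SE 0.58) and *Psmg3* (-0.95, SE 0.89). In replicates 2 and 3 alone, *Psmd13* was at -0.0056 and *Psmg3* at -0.059, so that these negative values too depend on replicate 1. *Psmd12* was at 95.8, 50.0 and 49.8 CPM in controls and 289, 73.9 and 74.6 CPM in CKO cells. In pSSPCs they were those of the core assembly chaperone genes *Psmg2* (-1.74, SE 0.87, adjusted p = 1.00 in edgeR) and *Psmg3* (-1.37, SE 1.1), of *Psmb7* (1.22, SE 1.55), *Psmc3ip* (1.13, SE 1.5), *Psmd5* (-1.07, SE 0.87) and *Psme4*, the PA200 activator (-1.06, SE 1.34). In replicates 2 and 3 alone, *Psmg3* was at 0.15, *Psme4* at 0.32 and *Psmd5* at -0.016, so that these negative values depend on replicate 1. *Psmb7* was at 0.40 in replicates 2 and 3 alone. The size of its fitted value rests on replicate 1, with 1 control and 31 CKO counts. *Psmg2* was at 102, 52.8 and 57.1 CPM in control and 10.9, 31.7 and 35.9 CPM in CKO pSSPCs, without overlap. The 19S genes had medians of 0.04 in gpSSPCs (10 of 17 above 0) and -0.12 in pSSPCs (6 of 17 above 0). The latter was -0.62 in the replicate 1 pair and 0.20 in replicates 2 and 3. The plot of fitted values by role shows that the 20S and 19S genes spread around 0 in both populations.

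**Figure D3:**
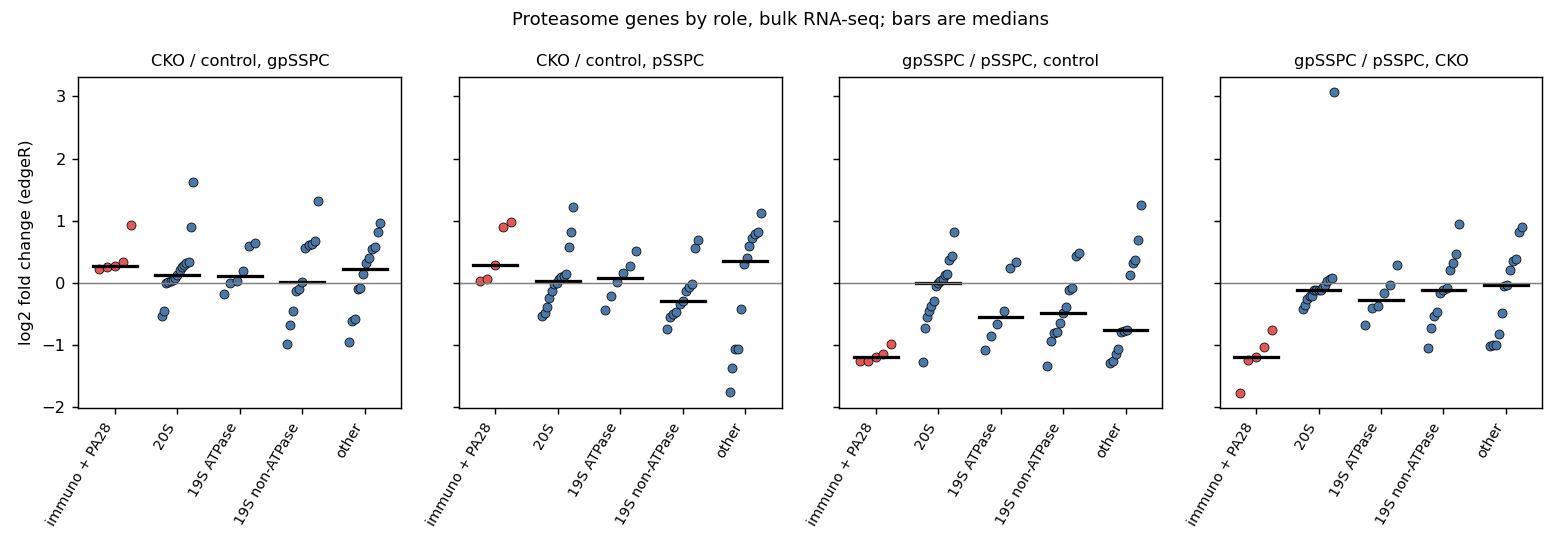
Fitted log2 fold changes (vertical axis, edgeR) of the proteasome genes by role (horizontal axes), with 1 point per gene and bars at the median, for CKO over control in each population and gpSSPCs over pSSPCs in each genotype. The 5 interferon-induced genes (red) lie between -1.77 and -0.75 in both population comparisons, whereas each of the 4 blue columns (20S, 19S ATPase, 19S non-ATPase and all other members) holds values of both signs in every panel.

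Same-numbered CKO and control libraries gave a further description. In gpSSPCs 18 of 49 members (36.7%) were higher in CKO cells in all 3 pairs, compared with 18.7% of all genes, and 2 (4.08%) were lower in all 3, compared with 20.5%. The 2 were *Psmb4* and *Psmd6*. In pSSPCs 16 of 48 (33.3%) were higher, compared with 20.7%, and 9 (18.8%) lower, compared with 21.3%. In both populations 7 of 48 (14.6%) were higher in all 6 pairs, compared with 4.79% of genes, and 0 were lower in all 6, compared with 5.05%. The 7 were *Psmb3*, *Psmb7*, *Psmb8*, *Psmb9*, the deubiquitinase gene *Psmd14*, the cap assembly chaperone gene *Psmd9* and *Psme3*, the PA28γ activator. Replicates 2 and 3 are counted as 1 sample in the tests, so that these 3 pairs are not 3 independent comparisons. Values without overlap, with all 3 CKO libraries above all 3 control libraries, were found for 8 of 49 members in gpSSPCs (16.3%, compared with 6.54%) and for 6 of 48 in pSSPCs (12.5%, compared with 9.12%). All 3 lay below for 2 of 49 (4.08%, compared with 8.16%) and for 3 of 48 (6.25%, compared with 8.74%).

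In gpSSPCs the 8 were *Psma2*, *Psma8*, *Psmc2*, *Psmd5*, *Psmd8*, *Psmd14*, *Psme2* and *Psme3*. The nearest control and CKO libraries of *Psme2* were almost equal, at 178.2 and 178.9 CPM. *Psma2* was at 116.5, 132.6 and 133.9 CPM in control and 143.8, 167.5 and 167.8 CPM in CKO gpSSPCs. *Psme3* was at 42.7, 32.3 and 31.2 CPM and at 50.9, 49.0 and 45.7 CPM. In pSSPCs the 6 were *Psma3*, *Psmb7*, *Psmb9*, *Psmd6*, *Psmd9* and *Psmg1*, and the 3 below were *Psmc6*, *Psmd4* and *Psmg2*. *Psmd9* was at 33.1, 31.7 and 28.8 CPM in control and 48.9, 52.8 and 55.1 CPM in CKO pSSPCs. Thus *Psmd6* stood below in gpSSPCs and above in pSSPCs.

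Whether the effect of *Z24* loss differed between gpSSPCs and pSSPCs was tested as a contrast. At an adjusted p under 0.05, 0 of 49 members and 0.0% of 13173 genes were called (edgeR quasi-likelihood contrast), 0 members and 0.0% of genes in DESeq2, and 0 members at an unadjusted p under 0.05 with an absolute log2 difference over 0.25, compared with 0.949% of genes. All same-numbered pairs went one way in gpSSPCs and the other way in pSSPCs for 3 of 48 members (6.25%, compared with 8.38% of genes), namely *Psmd6*, *Psmd11* and *Psmd12*. The difference, gpSSPCs minus pSSPCs, had a median of 0.06 for the interferon-induced genes, -0.05 for the constitutive 20S genes and 0.32 for the 19S genes, the last of which was -0.21 in replicates 2 and 3 alone. Leaving aside *Psma8*, which did not pass the filter within pSSPCs, the largest values were those of *Psmd5* (2.04, SE 0.96), *Psmg2* (1.89, SE 1.01) and *Psmd12* (1.87, SE 1.03), each with an adjusted p of 1.00 in edgeR. *Psmd5* was at 22.9, 27.6 and 30.8 CPM in control and 61.4, 37.9 and 44.2 CPM in CKO gpSSPCs, and at 79.0, 39.1 and 37.2 CPM in control and 16.1, 38.6 and 37.3 CPM in CKO pSSPCs, where only replicate 1 differed widely.

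Other gene lists gave the context of the genotype comparison. The interferon list had median log2 fold changes of 0.18 in gpSSPCs and 0.49 in pSSPCs, and the MHC class I list of 0.10 and 0.74. *Tap1* was at 11, 27.0 and 29.2 CPM in control and 6.8, 61.7 and 64.8 CPM in CKO pSSPCs. No gene of either list passed the test. Proteasome regulators had medians of 0.13 and -0.10 and proteasome partners of 0.13 and 0.06.

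Some cell type markers stood apart between genotypes as well, although none passed the test. In gpSSPCs 9 of 10 chondrocyte genes had fitted values below 0, with a median log2 fold change of -0.80. For 7 of the 10 chondrocyte genes all 3 CKO libraries lay below all 3 controls, compared with 8.16% of all genes. They summed to 43411, 28725 and 29182 CPM in control and 25164, 15744 and 15560 CPM in CKO gpSSPCs, without overlap, with *Col2a1* the most abundant and 0 genes at 0. All 6 tested erythroid genes had values below 0 there (median -1.21), and their list of 8, with *Hbb-bs* the most abundant, summed to 21.1, 6524 and 6694 CPM in control and 18.1, 2812 and 2956 CPM in CKO cells. In pSSPCs 8 of 10 PMSC genes were lower in CKO cells in all 3 pairs, compared with 21.3% of all genes. Without overlap 7 were lower, compared with 8.74% of all genes, and the median of the 10 was -0.59. Their sum, led by *Gsn*, did not follow, at 64443, 40210 and 40592 CPM in control and 37933, 43572 and 46746 CPM in CKO pSSPCs. The part of these differences in the proteasome values was not tested. Genotype values of the endothelial, pericyte and OB markers are not given here. Endothelial-like cells held the interferon-induced genes in scRNA-seq, and the part of endothelial markers in the genotype values was not tested either.

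Myeloid markers also stood apart between genotypes. The 13 genes summed to 27.2, 57.8 and 53.0 CPM in control and 72.5, 77.0 and 94.8 CPM in CKO gpSSPCs, and to 30.6, 52.8 and 49.8 CPM in control and 174, 95.6 and 94.3 CPM in CKO pSSPCs. The CKO libraries did not overlap the control libraries in either population. *H2-Ab1*, which interferon also induces, was the most abundant over all libraries, at 1.6, 43.3 and 49.6 CPM in CKO pSSPCs, and *Cd74* stood at 110, 18.3 and 16.5 CPM there, compared with 7.6, 4.0 and 1.0 CPM in control pSSPCs. *Ptprc* was at 0 in all 3 CKO pSSPC libraries and *Laptm5* in all 12. Between 1 and 5 of the 13 genes were at 0 in each library. Their part in the proteasome values was not tested.

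ATAC-seq, which maps open chromatin, was used to ask whether proteasome promoters differ. Libraries held between 12250713 and 46756821 tags after filtering and between 59209 and 101606 peaks, called by the authors in each library separately, with replicate 3 the deepest of each group. A peak lay within 1000 bases of the start site in all 12 libraries for 40 of 42 proteasome genes (95.2%), compared with 42.7% of 27025 genes. The exceptions were *Psmb11* and *Psme2b*. *Psmb11* had a peak in every gpSSPC library and in no pSSPC library, in both genotypes, while its transcript had 0 counts in every bulk RNA library. *Psme2b* had no peak in any library. Both genes are absent from the peak heights below, which require a peak in every library, and the split of *Psmb11* was not tested. A peak covered the start site itself in every library for 39 genes (92.9%, compared with 37.8%).

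Peak height was given as the pileup relative to the median of 11541 promoters with a peak in every library. *Psmb8* was at 0.777, 0.593 and 0.738 in control and 0.639, 0.635 and 0.767 in CKO gpSSPCs, and at 1.08, 0.877 and 1.03 in control and 0.940, 1.12 and 1.05 in CKO pSSPCs. *Psmb9* was at 1.07, 1.03 and 0.992 and at 0.986, 0.946 and 1.17 in control and CKO gpSSPCs, and at 1.21, 1.23 and 1.33 and at 1.20, 1.27 and 1.18 in control and CKO pSSPCs. *Psme1* was at 1.03, 0.923 and 0.893 and at 0.764, 0.770 and 0.977, compared with 1.16, 1.08 and 1.15 and with 1.27, 1.22 and 1.06. All 3 promoters were lower in every gpSSPC library than in every pSSPC library of the same genotype. *Psme2* overlapped between populations. *Psmb10* overlapped in control cells, with 0.989, 1.14 and 0.770 in gpSSPCs and 1.00, 0.923 and 0.974 in pSSPCs, and was higher in every gpSSPC library of the CKO group (0.931, 1.04 and 1.00) than in every pSSPC library (0.795, 0.859 and 0.865), the reverse of the other 3. *Psmb5* ranged from 0.473 to 0.699 over all 12 libraries. With 3 libraries against 3, an exact two-sided permutation test of a single promoter cannot go below p = 0.10, and the heights are given without a test.

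**Figure D4:**
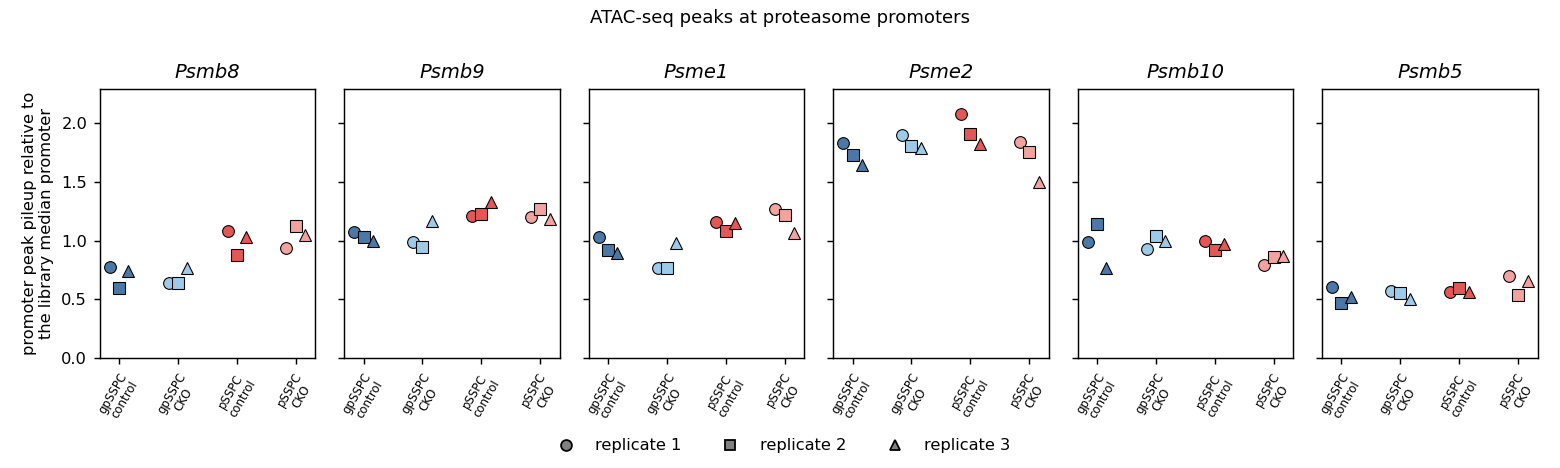
Pileup of the promoter peak relative to the median promoter of the library (vertical axes, linear from 0) for 6 proteasome genes by population and genotype (horizontal axes), with 1 point per ATAC-seq library. *Psmb8*, *Psmb9* and *Psme1* are lower in gpSSPCs than in pSSPCs of the same genotype without overlap, and *Psmb5* stays between 0.473 and 0.699.

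Such order was not common to the members. In control cells 6 of 40 promoters (15.0%) were lower in gpSSPCs without overlap, compared with 14.4% of promoters, and 5 (12.5%) higher, compared with 17.9%. The 6 were *Psma3*, *Psma4*, *Psmb8*, *Psmb9*, *Psmc5* and *Psme1*. In CKO cells 4 (10.0%) were lower, compared with 14.0%, namely *Psmb3*, *Psmb8*, *Psmb9* and *Psme1*, and 4 were higher (10.0%, compared with 18.2%), namely *Psma2*, *Psma3*, *Psmb10* and *Psmd1*. Between genotypes, *Psme3* was lower (2.5%, compared with 3.74%) and *Psma3* higher (2.5%, compared with 6.38%) in CKO gpSSPCs. In CKO pSSPCs *Psmb10*, *Psmc4*, *Psmd11* and *Psmd12* were lower (10.0%, compared with 5.85%) and *Psmc2*, *Psmf1* and *Psmg1* higher (7.5%, compared with 8.69%). *Psmb9*, whose transcript was higher in all 3 CKO pSSPC libraries than in all 3 controls, had relative peak heights of 1.18 to 1.27 in CKO and 1.21 to 1.33 in control pSSPCs, which overlap.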

How the data were processed

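Bulk RNA-seq was made by the study from 1000 sorted cells per library with a modified Smart-seq2 protocol with molecular identifiers, STAR on mm10 and HTSeq, and the deposited values are deduplicated counts per gene. The scRNA-seq files hold UMI counts per cell from Cell Ranger, as deposited. For ATAC-seq, the authors aligned with Bowtie2 to mm10 and called peaks with MACS2 in each library, and of the deposited columns the pileup signal was used, with −log10 q-values and fold enrichment deposited beside it.

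Counts were fitted with edgeR 4.0.16 in R 4.3.3 (quasi-likelihood test, TMM scaling, filterByExpr, Benjamini-Hochberg adjustment over all genes), within each population for genotype and over the 4 groups for population. The SE beside an edgeR value is its absolute log2 fold change divided by the square root of the F statistic of the test. It was derived in this way and is not a fitted standard error. DESeq2 1.42.0 was an alternative. Replicates 2 and 3 were summed. Pairs and the replicate block were taken from the replicate numbers in the titles. Deviations of same-numbered samples from their group means correlated at 0.53 to 0.59 over 12323 genes. Differently numbered samples were not compared, and replicate 1 stands apart in every group. The correlation therefore cannot show that numbers 2 and 3 pair samples. Cells were clustered with Seurat 5.3.0 without proteasome genes, *Ly6a*, *Nt5e*, *Acan* and *Zmpste24*, and classes were named from marker lists. Dropping the 5% of cells with most UMIs stood in for a doublet caller. A gene was compared between classes with at least 20 UMIs. Named genes were the interferon-induced genes and the constitutive subunits they replace, members with an unadjusted p under 0.05, the 5 others with the largest genotype differences at a mean of at least 5 CPM, and the 5 with the smallest p in each direction between populations. Other members shown for direction without overlap, such as *Psma2* and *Psmd9*, were chosen after their values were seen. The edgeR fit was tested on simulated data. The proteasome genes and all gene lists were chosen with earlier results of these data known. Some results that the rule for named genes covers are not reported here.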

Additional observations from a re-analysis of the deposited data

Results flagged for a closer look

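For 3 of 48 proteasome genes (6.25%, compared with 8.38% of 11172 genes), all 3 same-numbered pairs of gpSSPC libraries moved one way with genotype and all 3 pairs of pSSPC libraries the other. The difference in log2 fold change, gpSSPCs minus pSSPCs, was 1.11 for the 19S subunit gene *Psmd11*, 1.87 for *Psmd12* and -1.2 for *Psmd6*. *Psmd11* was higher in CKO gpSSPCs by 0.87, 0.12 and 0.21 on the log2 scale (replicates 1 to 3), and its values in pSSPCs were -0.68, -0.08 and -0.26. *Psmd12* had 1.58, 0.55 and 0.57 in gpSSPCs and -0.78, -0.01 and -0.16 in pSSPCs. *Psmd6* had -1.16, -0.23 and -0.29 in gpSSPCs and 0.93, 0.30 and 0.15 in pSSPCs. None of the 3 differences passed the test (edgeR quasi-likelihood contrast, adjusted p = 1.00), and replicates 2 and 3 count as 1 sample in it. Replicate 1 had the largest pair value in each case.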

How the results depend on the processing

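With 2 samples per group, a call needs a large difference, and leaving out replicate 1 leaves 1 summed sample whose spread is assumed to be that of the other groups. Members called stayed at 0 in each fit with a library left out, as did all genes but 4 in gpSSPCs without CKO replicate 1 (0.0281%) and 1 in pSSPCs without CKO replicate 1 (0.00713%), so that these fits say little about the members. In control cells between populations, 1 of 49 members (2.04%) was called with each library as 1 sample, compared with 4.54% of genes, and 1 with the replicate block, compared with 3.61%. The study's threshold gave 2, compared with 6.19%. Both each library and the block, chosen after seeing the data, gave 6 (12.2%), compared with 16.8%, and 5 in CKO cells (10.2%), compared with 12%. Each of these shares of members was below that of all genes.

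Median log2 fold changes of the interferon-induced genes in gpSSPCs were 0.35 with each library as 1 sample, 0.21 scaled by total counts and 0.37 in replicates 2 and 3 alone (also chosen after seeing the data, with no test), and those of the 19S genes 0.13, 0.15 with the replicate block and 0.18 in replicates 2 and 3. In pSSPCs the interferon-induced median was 0.17 with each library and 0.94 with the replicate block. The difference in genotype effect was 0.14 with each library, 0.21 with the block, -0.066 with total counts and -0.063 in replicates 2 and 3, and for the 19S genes -0.21 in the last. Between populations, replicates 2 and 3 gave -0.25 for the 19S genes in control cells, and total counts gave -1.35 for the interferon-induced and -0.27 for the constitutive 20S genes in CKO cells. With libraries left out, the interferon-induced medians ranged from -0.10 to 0.98 (gpSSPCs), -0.013 to 0.87 (pSSPCs), -0.70 to 0.35 (difference), -1.57 to -0.47 (control populations) and -1.62 to -0.73 (CKO populations). The 19S medians ranged from 0.033 to 0.19, -0.14 to 0.26, 0.10 to 0.32, -0.46 to -0.13 and -0.27 to -0.10 in the same order, and the 20S median of CKO populations from -0.24 to -0.058.

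Some genes changed sign. With libraries left out in gpSSPCs, *Psmb8* ranged from -0.55 to 0.98, *Psmb10* from -0.10 to 0.49, *Psme1* from -0.39 to 1.12 and *Psmb6* from -0.31 to 0.88. In pSSPCs *Psmb8* ranged from -0.013 to 1.64, *Psmb10* from -0.27 to 0.53, *Psme1* from -0.60 to 0.87 and *Psmb6* from -0.73 to 0.45. There *Psmb10* was -0.061 with the replicate block and -0.0047 in DESeq2, *Psmb6* 0.12 with total counts and 0.020 without a filter, and replicates 2 and 3 gave -0.038 for *Psme1*, 0.15 for *Psmg3* and 0.32 for *Psme4*. Between control populations *Psmb6* ranged from -0.94 to 0.15, *Psmb7* from -0.49 to 1.04, *Psma6* from -0.17 to 0.64 and *Psmc1* from -0.26 to 0.43, and replicates 2 and 3 gave 0.079 for *Psmd1*, -0.018 for *Psma6* and -0.25 for *Psmc1*. Between CKO populations *Psmb7* was -0.25 with the block and -0.074 with total counts and ranged from -0.0046 to 0.68, *Psmd12* ranged from -0.26 to 1.33, *Psmd11* from -0.27 to 0.56, *Psmb6* from -0.52 to 0.59 and *Psmc5* from -0.80 to 0.017, and replicates 2 and 3 gave 0.16 for *Psmb6* and -0.20 for *Psmd11*. The causes were not tested. Added to the fit of summed replicates, the block changed no call of a proteasome gene but that of *Psmc5* in control cells.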
